A study of Mus musculus with 16 samples.

Results

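The genes described here encode parts of the anchoring machinery that holds a basal keratinocyte to its basement membrane. They are *Lama3* and *Lamb3*, which encode the α3 and β3 chains of laminin-332 (LN332), and *Itga6*, *Itgb4*, *Col17a1*, *Plec* and *Dst*, which encode the receptors and inner plaque of the hemidesmosome. They were chosen by name, and all 7 were among the 14474 genes counted. The laminin α3 chain made by *Lama3* is a different protein from the α3 integrin subunit that defines the cell lines.

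RNA-seq counts came from immortalized mouse keratinocytes of 2 lines: MKα3− cells, which lack α3 integrin, and MKα3+ cells, which are the null cells reconstituted with human α3 integrin. Each line received LN332, the recombinant human protein, at 0.02 mg/mL in its medium, or an equal volume of the vehicle (PBS with glycine and NaN3), for 16 to 24 h, and each of the 4 groups had 4 replicates. All cells grew on collagen-coated dishes in low-calcium medium at 33 °C with 8% CO2. Both lines descend from null cells and differ by the added human subunit. Any other difference between these 2 lines cannot be told apart from an effect of the subunit. Whether either line is a clone or a pool is not given in the sources used here. Ages and strains of the source animals are likewise not given there.

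Laminin-332 is the main adhesive laminin of the epidermal basement membrane, and keratinocytes make and deposit it themselves. It is bound by integrin α3β1, which works in spreading and migrating cells, and by integrin α6β4, which is clustered in hemidesmosomes. In a mature hemidesmosome α6β4 and the transmembrane collagen XVII hold the matrix on the outside, while plectin and the epithelial form of dystonin (BPAG1e) link them to keratin filaments on the inside. Inherited loss of any of these components causes skin blistering.

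Start-site sequences are shown for *Lamb3*, *Col17a1* and *Dst*, the 3 of 7 genes with windows in the RefSeq promoter table used here. These 3 also had the lowest log2 fold changes between the lines in both media. Each window runs from 250 bases before to 50 bases after an annotated start in GRCm38.p6 and is printed in the sense of the gene, with capitals marking matches to the motifs searched. *Lamb3* and *Dst* each had a second window. The lines below give *Lamb3* at chr1:193301993-193302292 (plus strand), *Col17a1* at chr19:47691993-47692292 (minus strand) and *Dst* at chr1:34160010-34160309 (plus strand).
Lamb3: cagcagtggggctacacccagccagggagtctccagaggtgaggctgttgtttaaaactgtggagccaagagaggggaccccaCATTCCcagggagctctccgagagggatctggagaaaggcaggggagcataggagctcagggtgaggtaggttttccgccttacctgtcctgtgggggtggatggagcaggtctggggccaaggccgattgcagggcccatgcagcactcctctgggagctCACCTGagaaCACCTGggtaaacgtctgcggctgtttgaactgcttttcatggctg
Col17a1: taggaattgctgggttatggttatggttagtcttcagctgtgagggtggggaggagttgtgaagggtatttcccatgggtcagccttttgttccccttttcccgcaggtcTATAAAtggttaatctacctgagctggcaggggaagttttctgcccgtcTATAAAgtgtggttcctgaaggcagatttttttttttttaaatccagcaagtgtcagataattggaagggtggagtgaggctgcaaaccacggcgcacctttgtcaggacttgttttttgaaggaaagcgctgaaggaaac
Dst: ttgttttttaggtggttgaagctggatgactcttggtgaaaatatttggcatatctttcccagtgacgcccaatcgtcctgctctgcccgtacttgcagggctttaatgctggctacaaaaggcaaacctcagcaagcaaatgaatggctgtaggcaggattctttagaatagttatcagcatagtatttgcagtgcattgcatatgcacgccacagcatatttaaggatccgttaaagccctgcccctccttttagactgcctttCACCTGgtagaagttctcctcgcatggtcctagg
Both strands were searched for the AP-1 letters TGANTCA, which occurred in 7.81% of 32851 windows of the same length. The search also took the TEAD letters GGAATG, found in 14.7% of those windows, and an E-box with the letters CACCTG, found in 20.2%. The GC box was searched as GGGCGG (35.7% of windows) and the TATA box as the letters TATAAA (13.6% of windows), and no match overlapped another in the windows shown. The *Lamb3* window held a TEAD match, read as its reverse complement, at −167 and E-box matches at −6 and 5, counted from the start site. The *Col17a1* window held TATA matches at −140 and −91, and the *Dst* window held an E-box match at 17. The other *Dst* window, at chr1:34011345-34011644, held 4 GC boxes and an E-box with a GC content of 70.3%, against 46.0% in the window shown and a median of 52.7% over all windows. The other *Lamb3* window held none of the motifs. These matches describe the letters only.

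Total counts were between 21735708 and 29338370 per library with a median of 27036993, and the 7 genes took between 0.322% and 0.739% of them. The restored subunit is human, and whether its reads were counted under the mouse gene was not tested. The mouse *Itga3* gene had between 4530 and 8830 counts in every library and does not tell the lines apart. Its means in vehicle and LN332 were 259 and 268 CPM in MKα3− cells and 277 and 303 CPM in MKα3+ cells. The line labels were therefore not checked by the targeted gene. Keratinocyte markers were present throughout (9 of 9 genes, summed level between 9513 and 20213 CPM), while summed markers of fibroblasts, melanocytes, immune cells, endothelial cells and Merkel cells reached at most 40.7, 10.6, 43.4, 6.45 and 9.64 CPM. Of their defining genes, *Dcn*, *Lum*, *Tyr*, *Dct*, *Mlana*, *Cd3e* and *Atoh1* were not among the genes counted. CPM are a gene's counts scaled to a common library total with TMM factors. Unless another tool is named, adjusted p-values are from limma-voom over all 14474 genes, and a gene was called changed where this p was under 0.05 and its log2 fold change exceeded 0.5 in size.

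The question for these genes was whether their RNA differed between the lines with and without α3 integrin, and whether exogenous LN332 altered them. *Lamb3* RNA was lower in MKα3+ cells than in MKα3− cells in both media, and *Dst* RNA was lower in vehicle. None of the 7 was called changed by LN332 in either line. In vehicle 2 of the 7 genes were called between the lines, both lower, where 18.5% of all genes were called in either direction and 7.56% were called lower. In LN332 1 of the 7 was called, also lower, against 20.6% and 8.92% of all genes. The median log2 fold change of the 7 genes was −0.39 in vehicle and −0.44 in LN332, against medians of 0.01 and 0.01 over all genes. Point estimates lay below 0 for 7 genes in vehicle and for 6 in LN332. Among these, *Plec* at −0.01 and *Itgb4* at −0.09 in vehicle, and *Itgb4* at −0.0015 in LN332, were near 0 and changed sign under some alternatives. The α3 comparisons use different libraries in vehicle and in LN332, but each shares libraries with the LN332 comparisons.

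**Figure D1:**
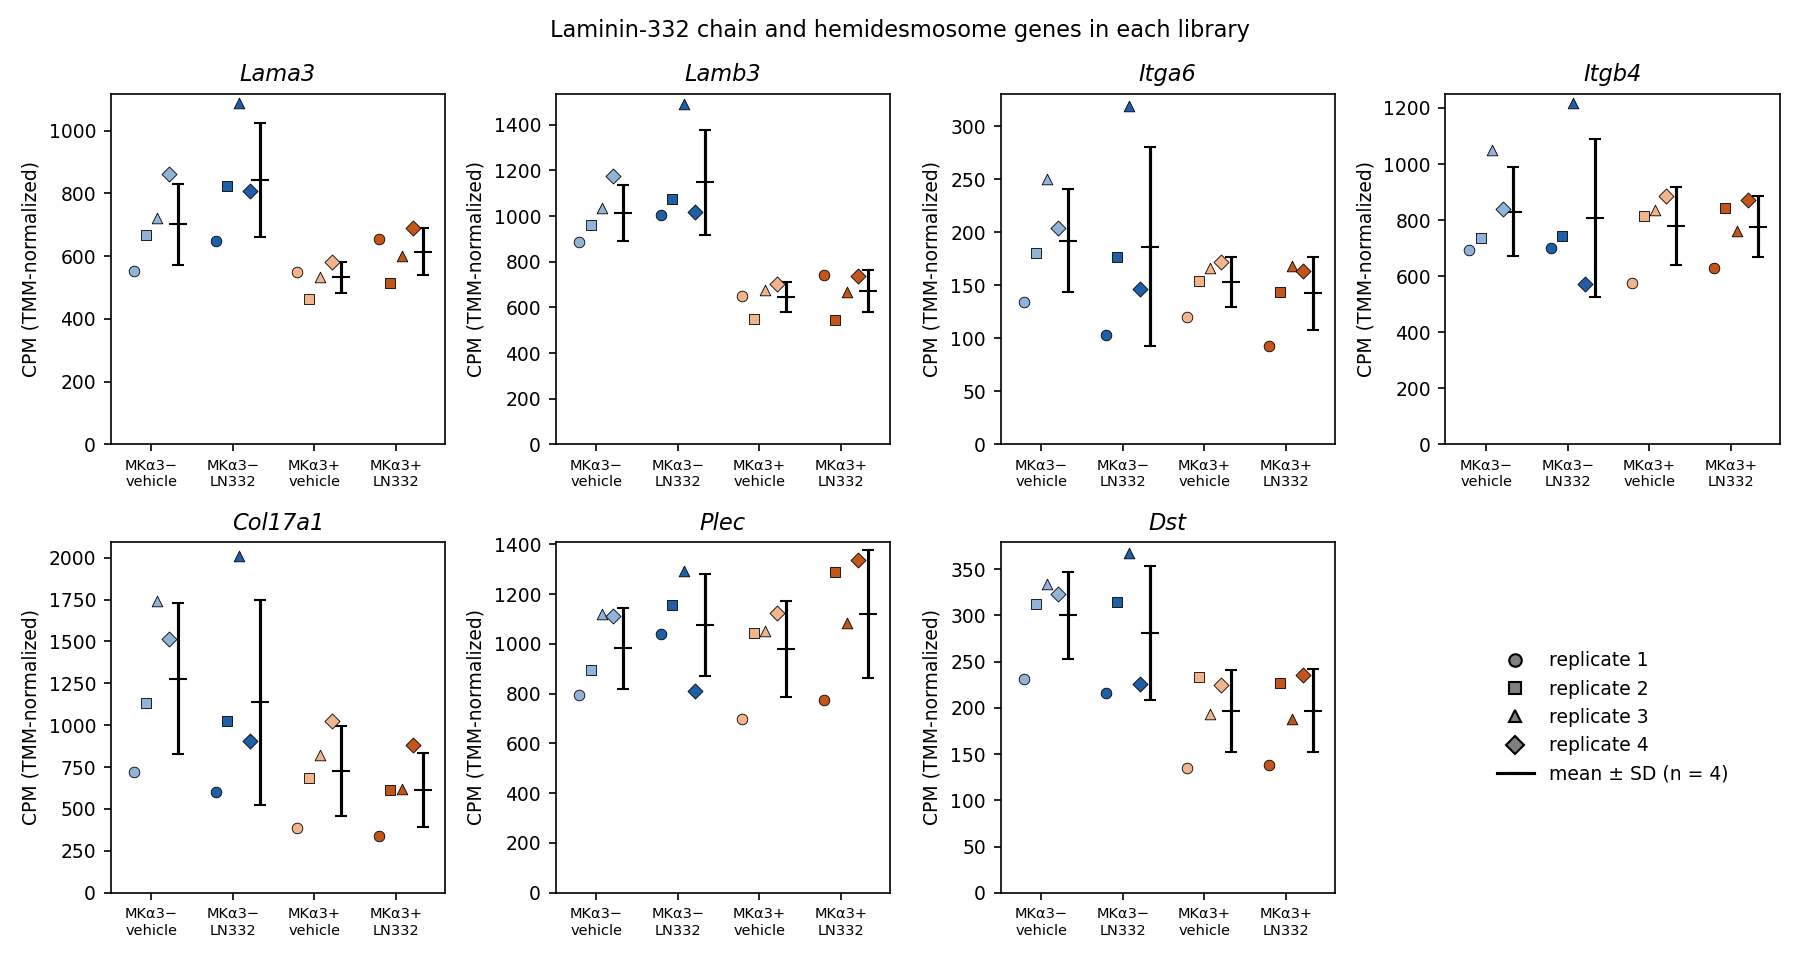
Level of each gene (y axis, CPM after TMM scaling) in each of 16 libraries (x axis, 4 groups), with symbols for the replicate number and bars for the mean ± SD of 4 libraries. *Lamb3* libraries of MKα3+ cells lie between 543 and 742 CPM, below every MKα3− library, whereas *Col17a1* spreads from 341 to 2010 CPM and replicate 1 is the lowest point of each of its groups.

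*Lamb3* (Entrez 16780, chromosome 1, 193294353 to 193343878, plus strand, GRCm38.p6) encodes the β3 chain of laminin-332. Vehicle-treated MKα3− replicates 1 to 4 had 888, 961, 1037 and 1175 CPM, and LN332-treated MKα3− replicates had 1007, 1077, 1490 and 1019 CPM. Vehicle-treated MKα3+ replicates had 651, 550, 674 and 703 CPM, and LN332-treated MKα3+ replicates had 742, 543, 667 and 738 CPM. Every MKα3+ library was thus below every MKα3− library, in both media. In vehicle MKα3− cells averaged 1015 ± 123 CPM and MKα3+ cells 644 ± 66.7 CPM (SD, n = 4 per line), which is a log2 fold change of −0.66 (SE 0.14, 95% confidence interval −0.95 to −0.36, adjusted p = 0.00195 from limma-voom). In LN332 they averaged 1148 ± 230 and 673 ± 92.8 CPM (SD, n = 4 per line), with a log2 fold change of −0.76 (SE 0.14, −1.06 to −0.47, adjusted p = 0.000496 from limma-voom). The groups did not overlap in either medium (two-sided exact permutation test, p = 0.0286 in each, the smallest that 4 against 4 libraries allows). *Lamb3* was the only member whose groups were apart in this way, in a background of 15.7% of all genes in vehicle and 12.9% in LN332 that were lower in every MKα3+ library.

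*Lama3* (Entrez 16774, chromosome 18, 12333417 to 12583013, plus strand) encodes the laminin α3 chain, whose globular end carries the integrin-binding sites. Its levels in vehicle were 554, 667, 722 and 861 CPM in MKα3− cells and 549, 464, 533 and 580 CPM in MKα3+ cells. In LN332 they were 648, 823, 1087 and 808 CPM in MKα3− cells and 654, 515, 600 and 689 CPM in MKα3+ cells. The groups overlapped in both media, since replicate 1 of MKα3− cells lay within the MKα3+ range. The log2 fold change between the lines was −0.39 (SE 0.15, −0.71 to −0.07) in vehicle and missed the threshold (adjusted p = 0.0663 from limma-voom). In LN332 it was −0.44 (SE 0.15, −0.76 to −0.12) with an adjusted p of 0.0367 from limma-voom, past the p threshold but under the minimum fold, so *Lama3* was not called in either medium. Without replicate 1 of LN332-treated MKα3− cells it was called (−0.55, adjusted p = 0.00984 from limma-voom), as it was without replicate 4 of LN332-treated MKα3+ cells (−0.50, adjusted p = 0.0324). Without LN332-treated MKα3− replicate 3 it was −0.32 (adjusted p = 0.106) and without MKα3+ replicate 2 −0.36 (adjusted p = 0.109).

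The chain genes were also set against each other within each library. The count ratio of *Lama3* to *Lamb3* was between 0.624 and 0.733 in vehicle-treated MKα3− libraries, between 0.643 and 0.793 in LN332-treated MKα3− libraries, between 0.791 and 0.844 in vehicle-treated MKα3+ libraries and between 0.881 and 0.948 in LN332-treated MKα3+ libraries. MKα3+ cells therefore had more *Lama3* counts for each *Lamb3* count than MKα3− cells in the same medium. The ratio was 1.21-fold higher in MKα3+ cells in vehicle and 1.25-fold higher in LN332, with no overlap of the groups in either (exact permutation test, p = 0.0286 in each). In MKα3+ cells it was 1.11-fold higher with LN332 than with vehicle, without overlap and in 4 of 4 same-numbered pairs (exact permutation test, p = 0.0286). In MKα3− cells, whose replicate numbers were not taken as pairs, the ratio was also higher on average with LN332. The difference there was 1.07-fold and the groups overlapped (exact permutation test, p = 0.286). Over the 8 ratio comparisons made for both subunit pairs the Benjamini-Hochberg values were 0.0763 for the first 3 and 0.381 for the last, so none passed 0.05. A ratio of this kind shows unequal levels, and does not say which gene differed. Beyond these subunit pairs no ratios were computed, so how often ratios stay apart in this way is not known. Among single genes, 15.7% in vehicle and 12.9% in LN332 were lower in every MKα3+ library. Between vehicle and LN332 in MKα3+ cells 9.66% of genes did not overlap, and 39.2% moved one way in all 4 pairs.

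**Figure D2:**
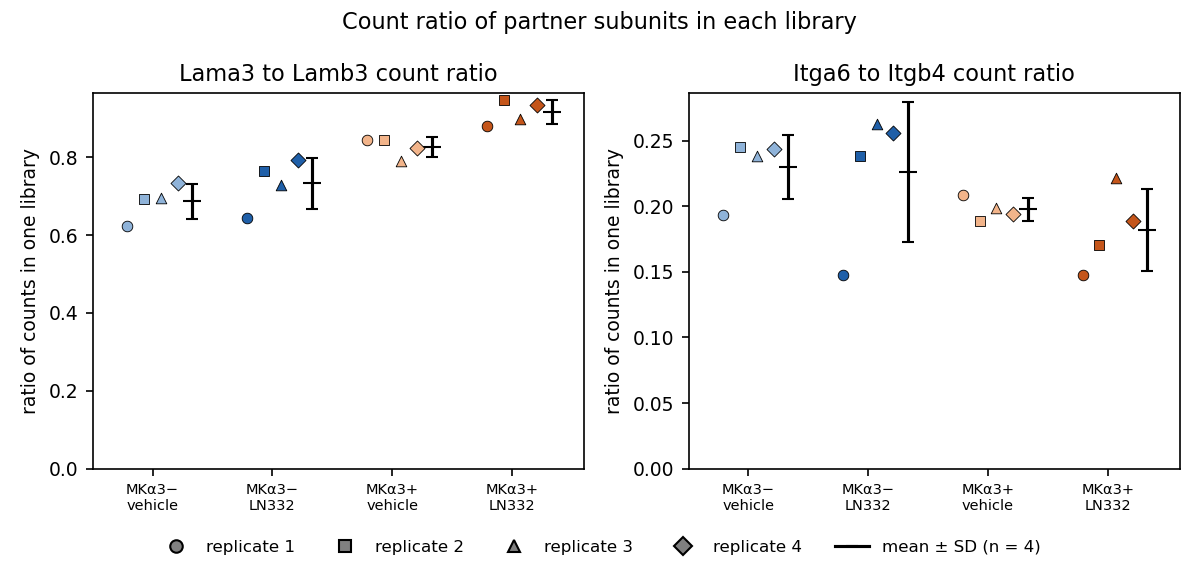
Ratio of the counts of partner subunit genes in each library (y axis) for the 4 groups (x axis), with *Lama3* to *Lamb3* on the left and *Itga6* to *Itgb4* on the right; bars are the mean ± SD of 4 libraries. The *Lama3* to *Lamb3* ratio lies between 0.881 and 0.948 in LN332-treated MKα3+ cells, above all other libraries, while the *Itga6* to *Itgb4* groups overlap.

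The receptor genes did not pass the test between the lines. *Itgb4* (Entrez 192897, chromosome 11, 115974725 to 116008412, plus strand) encodes β4, whose long cytoplasmic tail recruits plectin. Its levels were 693, 736, 1050 and 839 CPM in vehicle-treated MKα3− cells and 575, 815, 835 and 887 CPM in vehicle-treated MKα3+ cells. With LN332 they were 699, 743, 1217 and 571 CPM in MKα3− cells and 631, 844, 760 and 871 CPM in MKα3+ cells. The lines covered the same range, with log2 fold changes of −0.09 (SE 0.20, −0.52 to 0.33, adjusted p = 0.774) in vehicle and 0.00 (SE 0.20, −0.42 to 0.42, adjusted p = 0.996) in LN332 by limma-voom. These intervals include a log2 difference of 0.5 only at the lower end in vehicle. Of the *Itgb4* exon bases, 7.66% overlap B230344G16Rik on the opposite strand, and the strand setting of the counting was not stated, so the value is uncertain by that part.

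*Itga6* (Entrez 16403, chromosome 2, 71786886 to 71858427, plus strand) encodes α6, the chain that pairs with β4 in hemidesmosomes and can also pair with β1. Vehicle-treated libraries had 134, 180, 250 and 204 CPM in MKα3− cells and 120, 154, 166 and 172 CPM in MKα3+ cells. LN332-treated libraries had 103, 177, 320 and 146 CPM in MKα3− cells and 93.1, 144, 169 and 164 CPM in MKα3+ cells. Replicate 1 was the lowest of every group. The log2 fold change between the lines was −0.31 (SE 0.28, −0.89 to 0.27, adjusted p = 0.439) in vehicle and −0.30 (SE 0.27, −0.87 to 0.28, adjusted p = 0.436) in LN332 by limma-voom. These intervals leave room for a lower level in MKα3+ cells beyond the minimum fold. Leaving out single libraries gave −0.47 to −0.17 in vehicle. In LN332 it gave −0.54 without MKα3− replicate 1, −0.11 without MKα3+ replicate 1 and −0.0079 without MKα3− replicate 3. *Itga6* was called in none of these fits.

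In vehicle the count ratio of *Itga6* to *Itgb4* averaged 0.230 ± 0.0246 in the null line and 0.198 ± 0.00858 in the reconstituted line (SD, n = 4 per line). In LN332 it averaged 0.226 ± 0.0533 and 0.182 ± 0.0312 in the same order. The groups overlapped in all 4 comparisons, with exact permutation p-values of 0.114 and 0.286 between the lines and of 0.371 and 0.914 with LN332 in MKα3+ and MKα3− cells. LN332-treated replicate 1 had the same low ratio, 0.148, in both lines.

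*Col17a1* (Entrez 12821, chromosome 19, 47646341 to 47692042, minus strand) encodes collagen XVII, the transmembrane collagen of the hemidesmosome and the autoantigen of bullous pemphigoid. Vehicle-treated MKα3− replicates had 722, 1132, 1744 and 1514 CPM, and vehicle-treated MKα3+ replicates had 385, 685, 823 and 1024 CPM. LN332-treated replicates had 604, 1025, 2010 and 905 CPM in MKα3− cells and 341, 614, 621 and 882 CPM in MKα3+ cells. The MKα3+ libraries were the lower ones on average, but the groups overlapped, and the highest replicate of a group was 2.42-fold to 3.33-fold above its lowest. The log2 fold change between the lines was −0.82 (SE 0.38, −1.61 to −0.03) in vehicle and −0.82 (SE 0.37, −1.59 to −0.05) in LN332, the lowest of the 7 genes in both media. It missed the threshold in both (adjusted p = 0.116 and 0.0971 from limma-voom). A fit with a block for the replicate number called it in both media, but replicate numbers were not taken as pairs between the lines. Single libraries moved the values of the main fit. Without replicate 1 of LN332-treated MKα3− cells the difference in LN332 was called, at −1.07 with an adjusted p of 0.0411 from limma-voom, whereas without replicate 3 of the same group it was −0.51 (adjusted p = 0.282) and without replicate 1 of LN332-treated MKα3+ cells −0.56 (adjusted p = 0.25). In vehicle it was −0.54 without MKα3+ replicate 1 (adjusted p = 0.303) and −1.07 without MKα3− replicate 1 (adjusted p = 0.0583), and was not called without any single library.

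*Plec* (Entrez 18810, chromosome 15, 76170974 to 76231378, minus strand) encodes plectin, the plakin that links β4 to keratin. Its levels in vehicle were 796, 896, 1121 and 1114 CPM in MKα3− cells and 698, 1044, 1050 and 1126 CPM in MKα3+ cells. In LN332 they were 1041, 1158, 1293 and 812 CPM in MKα3− cells and 773, 1288, 1083 and 1335 CPM in MKα3+ cells. The lines overlapped throughout, with log2 fold changes of −0.01 (SE 0.19, −0.42 to 0.40, adjusted p = 0.972) in vehicle and 0.05 (SE 0.19, −0.36 to 0.46, adjusted p = 0.865) in LN332 by limma-voom. Both intervals lie inside the minimum fold of 0.5 on the log2 scale. *Plec* shares 1.13% of its exon bases with *Parp10* on the same strand.

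*Dst* (Entrez 13518, chromosome 1, 33907888 to 34308662, plus strand) encodes dystonin, whose epithelial isoform BPAG1e sits beside plectin in the inner plaque. Counts per gene do not separate this isoform from the neuronal and muscle forms. Vehicle-treated replicates had 231, 312, 334 and 324 CPM in MKα3− cells and 135, 233, 194 and 225 CPM in MKα3+ cells. LN332-treated replicates had 217, 315, 368 and 226 CPM in MKα3− cells and 138, 227, 188 and 236 CPM in MKα3+ cells. In vehicle MKα3− replicate 1 lay just under the highest MKα3+ library, and all other MKα3− libraries were above it. The mean was 300.3 ± 47.0 CPM in MKα3− cells and 197 ± 44.3 CPM in MKα3+ cells (SD, n = 4 per line). The log2 fold change between them was −0.63 (SE 0.21, −1.07 to −0.18, adjusted p = 0.0332 from limma-voom). The exact permutation test of the same libraries gave p = 0.0571. The call depended on single libraries, since it was lost without MKα3− vehicle replicate 2, 3 or 4 (adjusted p = 0.0705, 0.0896 and 0.0758) and without MKα3+ vehicle replicate 1 or 3 (0.107 and 0.0637), all from limma-voom. In LN332 the log2 fold change was −0.50 (SE 0.21, −0.94 to −0.07) and missed the threshold (adjusted p = 0.0729 from limma-voom). It passed without LN332-treated MKα3− replicate 1 (−0.62, adjusted p = 0.0432) and without MKα3+ vehicle replicate 1 (−0.50, adjusted p = 0.0475), and was smaller without LN332-treated MKα3− replicate 3 (−0.37, adjusted p = 0.192) or MKα3+ replicate 1 (−0.34, adjusted p = 0.2). A fit with a block for the replicate number called *Dst* in both media, but replicate numbers were not taken as pairs between the lines. A pair of uncounted transcripts on the opposite strand, A930005N03Rik and Gm26788, overlap 1.11% and 2.52% of the *Dst* exon bases.

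**Figure D3:**
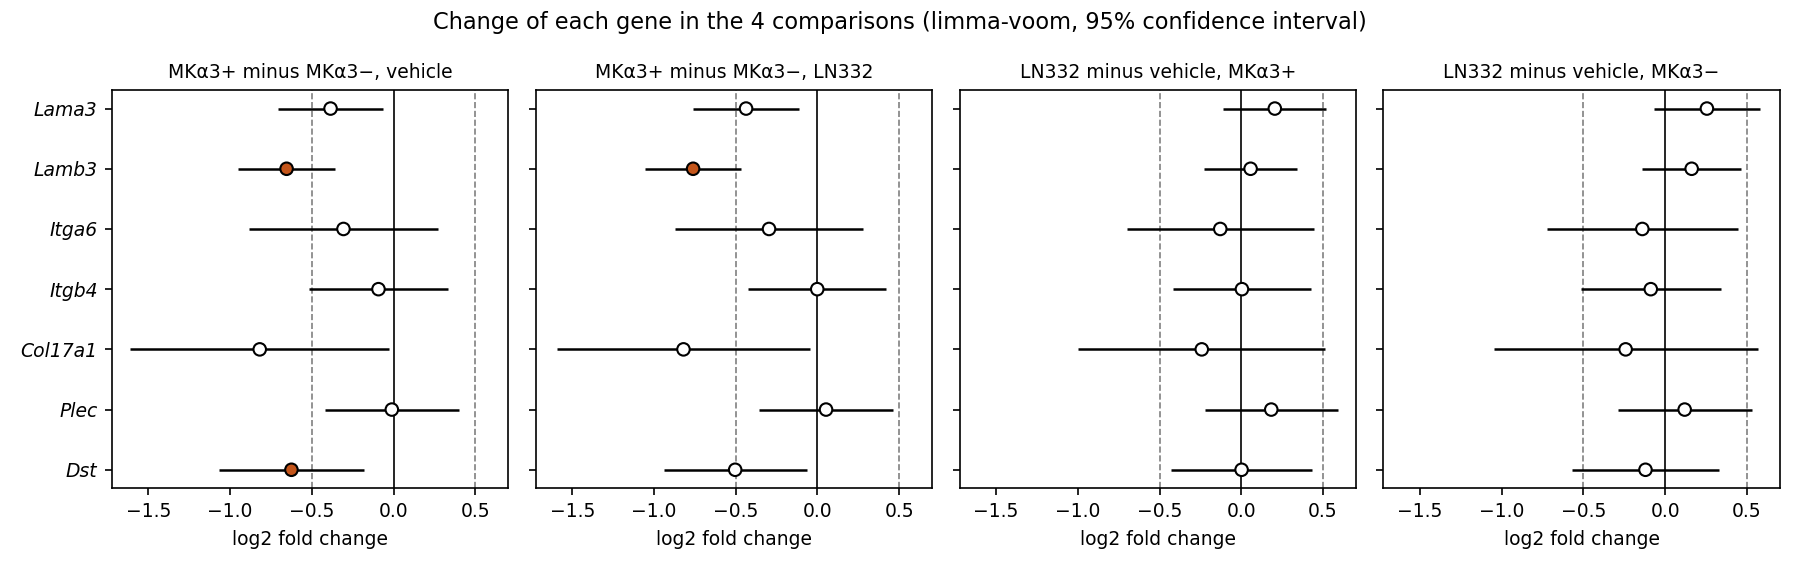
Log2 fold change of each gene (x axis) with its 95% confidence interval from limma-voom, in the 4 comparisons named above the panels; filled points are called genes and dashed lines mark ±0.5. *Lamb3* is filled at −0.66 and −0.76 between the lines and *Dst* at −0.63 in vehicle, and no point is filled in the LN332 panels.

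With LN332, none of the 7 genes was called in MKα3+ cells, where 0.187% of all genes were, or in MKα3− cells, where 0.304% were. No member had an unadjusted p under 0.05 in either line, and neither edgeR nor DESeq2 called any member. Estimates in MKα3+ cells ran from −0.24 for *Col17a1* (SE 0.36) to 0.20 for *Lama3* (SE 0.15), with adjusted p-values of at least 0.781 from limma-voom. In MKα3− cells they ran from −0.24 for *Col17a1* (SE 0.38) to 0.26 for *Lama3* (SE 0.16), with adjusted p-values of at least 0.485. The vehicle and LN332 libraries of every gene overlapped in both lines, whereas 9.66% of all genes in MKα3+ cells and 4.95% in MKα3− cells had groups that did not. Averaged over the lines, where 1.35% of all genes were called, *Lama3* had the highest estimate at 0.23 (SE 0.11, 0.00 to 0.46, adjusted p = 0.244 from limma-voom). The difference of the LN332 effect between the lines was between −0.11 for *Lamb3* and 0.12 for *Dst*, with an adjusted p of 1 for each. By limma-voom 0 of the 14474 genes (0%) were called for that difference, and 164 had an unadjusted p under 0.05, none of them among the 7. By edgeR and DESeq2 0 genes were called as well.

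Within pairs of MKα3+ libraries, small differences with LN332 were seen in *Lama3*, *Plec* and *Col17a1*. Same-numbered vehicle and LN332 libraries of these cells deviated from their group means together across genes, so the 4 pairs were also compared within pairs, a choice made after seeing the data, by limma-voom on the 8 MKα3+ libraries with a block for the number of the replicate. In that fit *Lama3* was higher with LN332 by 0.21 on the log2 scale (SE 0.03, 0.13 to 0.28, adjusted p = 0.00189), with pair differences of 0.25, 0.15, 0.17 and 0.25. *Plec* was higher by 0.19 (SE 0.04, 0.09 to 0.28, adjusted p = 0.0114), with pair differences of 0.15, 0.30, 0.04 and 0.25. *Col17a1* was lower, at −0.24 (SE 0.04, −0.34 to −0.14, adjusted p = 0.00367), with pair differences of −0.18, −0.16, −0.41 and −0.22. Each of these moved one way in 4 of 4 pairs, as did 39.2% of all genes. The adjusted p was under 0.05 for 3 of the 7 genes, against 21.2% of the 14200 genes in the fit, and no member passed the minimum fold, which 3.63% did. *Lamb3* at 0.06 (adjusted p = 0.341), *Itga6* at −0.12 (0.174), *Itgb4* at 0.00 (0.953) and *Dst* at 0.00 (0.952) did not pass, and their intervals lay within −0.25 and 0.15. The result depends on that choice of libraries, since a block fitted over all 16 libraries put *Lama3* at an adjusted p of 0.472, *Plec* at 0.613 and *Col17a1* at 0.562. Scaling by library size alone moved the median of all genes in this comparison from −0.01 to −0.08.

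**Figure D4:**
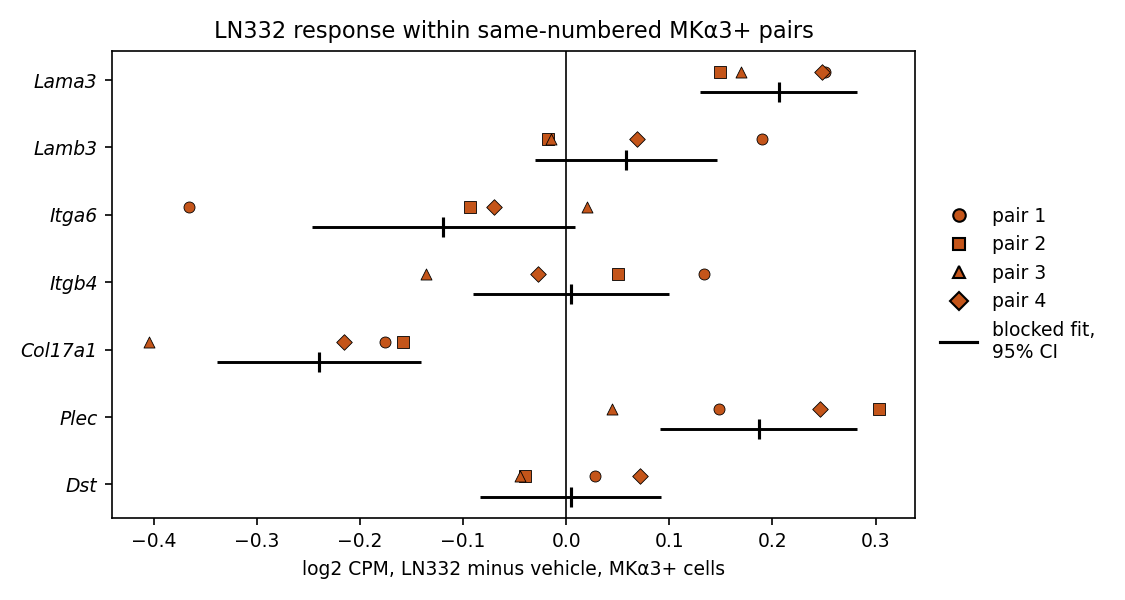
Difference in log2 CPM between the LN332 and the vehicle library of each same-numbered MKα3+ pair (x axis, symbols by pair) for the 7 genes (y axis), with the estimate of the blocked limma-voom fit and its 95% confidence interval as a black line. All 4 *Lama3* and *Plec* pairs lie above 0 and all 4 *Col17a1* pairs lie below 0, none beyond −0.41 or 0.30.

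The genes differed in how far replicates spread. The pooled within-group SD was 0.62 on the log2 scale for *Col17a1* and 0.45 for *Itga6*, at the 91.4th and 82.6th percentile of all genes, whose median was 0.21. For *Dst*, *Itgb4* and *Plec* it was 0.34, 0.32 and 0.30, and for *Lama3* and *Lamb3* 0.23 and 0.21, near that median. Replicate 1 was the lowest of the 4 in 22 of the 28 combinations of gene and group, and replicates 3 and 4 were the highest in 13 each. For *Itga6*, *Col17a1* and *Dst* replicate 1 was lowest in all 4 groups. The laminin chain genes did not follow this order in MKα3+ cells, where replicate 2 was the lowest for both. LN332-treated replicate 1 also had the highest share of *Rn45s* ribosomal RNA in each line, 1.42% in MKα3− and 1.06% in MKα3+ cells. All libraries ranged upwards from 0.502%. In vehicle replicate 1 was the highest in MKα3+ cells, at 0.652% against at most 0.529%. In vehicle-treated MKα3− cells the highest share was in replicate 4, at 0.868%. The share of the mitochondrial ribosomal RNAs *mt-Rnr1* and *mt-Rnr2* was highest in replicate 1 of all 4 groups. In vehicle it was 0.159% in MKα3− and 0.133% in MKα3+ replicate 1, against at most 0.106% and 0.0690% in the others, and in LN332 it was 0.188% and 0.133%, against at most 0.0580% and 0.0670%. The part of these RNAs in the members' levels was not tested.

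**Figure D5:**
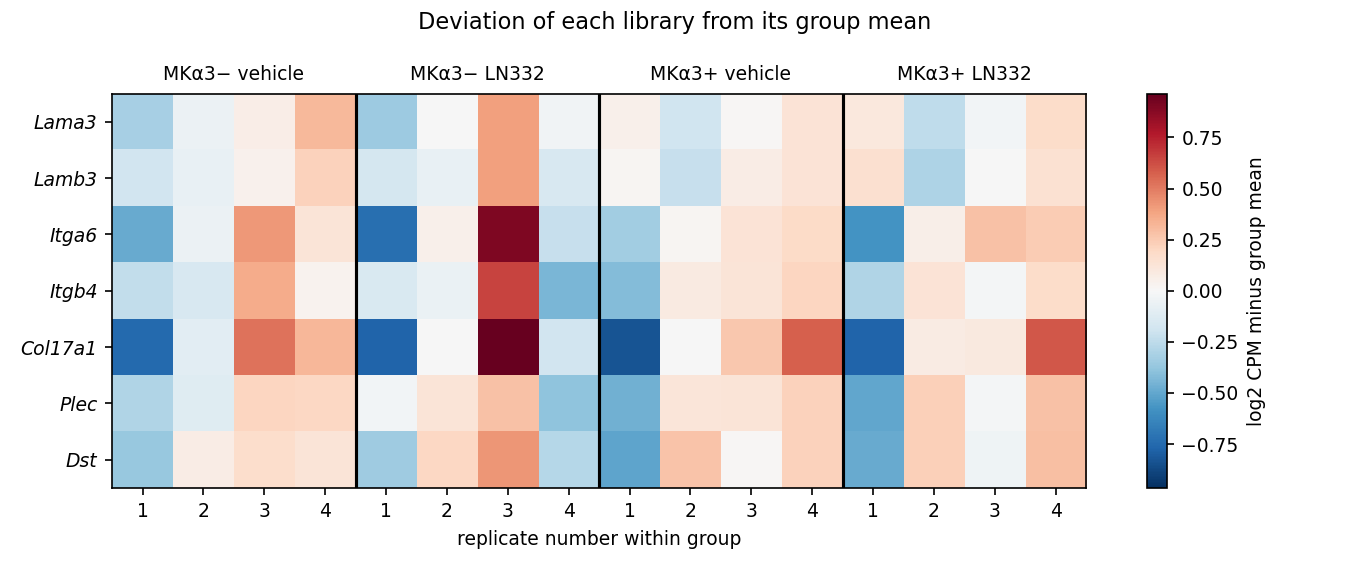
Deviation of each library from its group mean (colour, log2 CPM) for the 7 genes (rows) and the 16 libraries (columns, ordered by group and replicate number). Replicate 1 is blue in all 4 groups for *Itga6*, *Col17a1* and *Dst*, and replicate 3 of LN332-treated MKα3− cells is red for all 7 genes.

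Per kilobase of annotated exon, which allows levels to be set between genes, *Col17a1*, *Lamb3* and *Itgb4* were the most abundant in vehicle-treated MKα3− cells, at 213 ± 74.6, 154 ± 18.6 and 118 ± 22.7 CPM per kb (SD, n = 4). *Lama3* and *Plec* followed at 65.2 ± 11.9 and 54.2 ± 8.93, then *Itga6* at 21.3 ± 5.36 and *Dst* at 7.30 ± 1.14 CPM per kb. Neighbours in this order overlapped in range from *Col17a1* to *Itgb4* and between *Lama3* and *Plec*, and were apart elsewhere. In LN332-treated MKα3+ cells *Itgb4* (111 ± 15.4), *Col17a1* (102 ± 36.8) and *Lamb3* (102 ± 14.03 CPM per kb) overlapped at the top. *Plec* and *Dst* have many alternative exons, so their summed exon length of 18113 and 41155 bases lowers these values. The lengths of the other genes, *Lama3* included, are also sums over all annotated exons. All come from GENCODE rather than from the annotation used for counting, so the order between genes is approximate.

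Beyond the 7 genes, 40 of 44 listed genes of laminin processing, laminin receptors and their partners, basement membrane and other plaque proteins were counted. Between the lines 4 were called higher and 1 lower in vehicle, and 9 higher and 2 lower in LN332, where the shares of all genes called were 18.5% and 20.6%. With LN332 none was called in either line by limma-voom. Among 17 basement membrane genes 3 were higher in MKα3+ cells in vehicle and 6 in LN332, and none was lower. *Npnt*, which encodes the α8β1 ligand nephronectin, was higher by 3.41 on the log2 scale (SE 0.18, adjusted p = 5.02e-10) in vehicle and by 3.55 (SE 0.19, adjusted p = 9.63e-10) in LN332 by limma-voom. *Col4a1*, a collagen IV chain of all basement membranes, was higher by 1.53 (SE 0.14, adjusted p = 3.15e-07) and by 1.79 (SE 0.14, adjusted p = 5.25e-08). The list medians were 0.25 and 0.45 in vehicle and LN332.

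A further list held 11 genes of laminin receptors and their partners, other than those of α6β4. In it *Sdc1* (syndecan-1) was higher in MKα3+ cells in vehicle, by 0.55 (SE 0.18, adjusted p = 0.0315 from limma-voom), and in LN332, by 0.69 (SE 0.18, adjusted p = 0.00825). *Bcam*, a receptor for laminins with the α5 chain, was lower in vehicle at −1.23 (SE 0.21, adjusted p = 0.000306) and in LN332 at −1.03 (SE 0.21, adjusted p = 0.00131). In vehicle 1 gene of this list was called higher and 1 lower, and in LN332 2 were higher and 1 lower. *Itga2*, a collagen and laminin receptor chain, was called in LN332 at 1.31 (SE 0.42, adjusted p = 0.0225), with 1.22 in vehicle (SE 0.50, adjusted p = 0.0796). Among 9 plakins and plaque linkers none was called in vehicle, and in LN332 *Eppk1* (epiplakin) was higher by 0.66 (SE 0.15, adjusted p = 0.00327) and *Krt5*, the basal keratin, was lower at −0.80 (SE 0.23, adjusted p = 0.0117). Their vehicle values were 0.39 (SE 0.15, adjusted p = 0.066) and −0.54 (SE 0.23, adjusted p = 0.0905), and the difference between media had an adjusted p of 1 for *Itga2*, *Sdc1*, *Eppk1* and *Krt5* alike. Of the processing enzymes 3 were counted and none was called. The list medians were 0.09 and 0.20 for the receptors and partners, 0.09 and 0.12 for the plakins and linkers, and −0.13 and −0.04 for the enzymes. Over all genes the median was 0.01 in each medium.

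For the called members, the genes with the closest pattern over the 16 libraries were found among 11795 candidates by the root mean square difference of centred log2 CPM. For *Lamb3* they were A930001C03Rik at 0.157 and *Foxc1*, a forkhead transcription factor gene, at 0.159, where *Lamb3* itself had an SD of 0.42. *Foxc1* averaged 32.8 and 33.6 CPM in MKα3− cells and 20.6 and 21.1 CPM in MKα3+ cells, in vehicle and LN332. For *Dst* they were *Ece1*, the gene of endothelin-converting enzyme, at 0.141 and *Selenoi*, which encodes a phospholipid-synthesis enzyme, at 0.153, with an SD of 0.42 for *Dst*. *Ece1* averaged 379 and 357 CPM in MKα3− cells and 230 and 227 CPM in MKα3+ cells.

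Other epithelial markers moved with the lines. Summed markers of simple epithelium (4 of 4 genes, *Krt7*, *Krt8*, *Krt18* and *Krt19*) were between 1936 and 3277 CPM in MKα3− libraries and between 4072 and 5459 CPM in MKα3+ libraries, without overlap. The 2 of 3 Merkel cell markers that were counted summed to between 3.64 and 6.80 CPM in MKα3− libraries and between 7.63 and 9.64 CPM in MKα3+ libraries. *Krt19* was at 6.33 and 5.78 CPM on average in MKα3− cells and at 358 and 331 CPM in MKα3+ cells, in vehicle and LN332. *Krt7* and *Krt8* also had higher means in MKα3+ cells in both media. *Krt18* differed little, at 348.8 and 454.6 CPM in MKα3− cells and 375.5 and 467.6 CPM in MKα3+ cells. The 9 keratinocyte markers, which include *Col17a1* itself, summed to between 9513 and 20213 CPM in MKα3− libraries and between 10495 and 15745 CPM in MKα3+ libraries, with overlap, and their means did not all differ one way. In MKα3+ cells 5 had lower means in both media (*Krt5*, *Krt15*, *Trp63*, *Perp* and *Col17a1*), 3 had higher means in both (*Krt14*, *Krt17* and *Cdh3*), and *Sfn* was higher in vehicle and lower in LN332. *Trp63*, the p63 gene of basal cells, averaged 123 and 101 CPM in MKα3− cells and 76.6 and 53.4 CPM in MKα3+ cells, whereas *Krt14*, the basal partner of keratin 5, averaged 4231 and 6086 CPM against 5802 and 7342 CPM. Their part in the *Lamb3* and *Dst* differences was not tested, and in bulk RNA fewer cells of a type and less RNA per cell cannot be told apart. Genes in a 20 Mb window centred on *Dst* had a median log2 fold change of −0.23 in vehicle and −0.20 in LN332 (65 genes). In a window of the same width around *Lamb3* the medians were 0.02 and 0.05 (55 genes). The corresponding medians were −0.12 and −0.14 near *Col17a1* (141 genes), and what these neighbourhoods contribute was not tested.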

How the data were processed

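RNA from 16 samples was sequenced as poly(A) libraries. The authors mapped reads to mm10 with Rsubread align at default settings, counted them with featureCounts on its inbuilt Entrez annotation, and deposited raw counts of 14474 genes without normalization. The strand setting was not stated. TMM factors (edgeR 4.0.16) and voom, group contrasts and empirical Bayes tests (limma 3.58.1, R 4.3.3) were computed from the counts, with all 16 libraries and 4 group coefficients in a single fit. Requiring over 0.5 CPM in 3 or more libraries, the minimum that the authors state for their own filter, removed 0 genes. CPM are TMM-normalized, and ratios were tested on log2 CPM (prior count 2) by two-sided exact permutation over 70 splits. Alternatives included edgeR's quasi-likelihood test, DESeq2 1.42.0, other scalings and filters (12795 genes had at least 10 counts in every library), sample quality weights, the replicate block and leaving out each library. The tests were checked on simulated counts.

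The labels do not say that replicates were separate cultures, so p-values measure the spread between these samples. No 2 replicates of a group differed by as little as sampling noise (smallest chi-square per degree of freedom 5.45). Replicate numbers come from the labels. Same-numbered vehicle and LN332 libraries of MKα3+ cells deviated together (correlations of deviations 0.62, 0.474, 0.202 and 0.58), so these were treated as pairs, and the fit on the 8 MKα3+ libraries was added after seeing the data.

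The members and lists were chosen with earlier results of these data known. Named genes are the 7 members, the 2 largest called genes of each list in each α3 comparison, and the 2 genes most like a called member. *Rn45s*, *mt-Rnr1*, *mt-Rnr2*, *Krt14*, *Krt18*, *Krt19* and *Trp63* were chosen after their values were seen. Of the lists, 1 gene is not reported here. Positions, exon lengths and overlaps are from GRCm38.p6 (97.2% of genes matched), and promoter windows from RefSeq.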

Additional observations from a re-analysis of the deposited data

Results flagged for a closer look

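In LN332-treated MKα3− cells *Lamb3* was 1490 CPM in replicate 3, whereas the other replicates lay between 1007 and 1077 CPM. In vehicle-treated MKα3− cells the *Itga6* to *Itgb4* count ratio was 0.1936 in replicate 1, against 0.2384 to 0.245 in the other replicates. In both cases the gap between the extreme library and its nearest neighbour was larger, as a share of the range of the group, than Dixon's critical value for 4 samples allows. Of the 36 groups of values tested, 2 stood out in this way, and chance alone gives about 1 in 20 groups, or 1.8 here. *Lamb3* was called between the lines in LN332 also without replicate 3 of LN332-treated MKα3− cells (log2 fold change −0.64, adjusted p = 0.00137 from limma-voom).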

How the results depend on the processing

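*Lamb3* kept its direction and its call between the lines under every alternative but a minimum log2 fold change of 1, under which 0 members were called in either medium. In vehicle, leaving out single libraries gave 1 to 2 called members, and *Dst* was the gene lost. The replicate block and sample quality weights each gave 3, with *Col17a1* added. In LN332, where *Lamb3* alone was called, DESeq2 gave 2 (with *Dst*), no minimum fold 2 (with *Lama3*), sample quality weights 3 (with *Lama3* and *Dst*) and the replicate block 3 (with *Col17a1* and *Dst*). Leaving out libraries there gave 1 to 4, with 4 without LN332-treated MKα3− replicate 1 (*Lama3*, *Col17a1* and *Dst* added). With the replicate block *Col17a1* had adjusted p-values of 0.00145 in vehicle and 0.00125 in LN332 (limma-voom). Those of *Dst* in the same fit were 0.000793 and 0.00344 (limma-voom). Outside the MKα3+ vehicle and LN332 groups the replicate numbers were not taken as pairs, because of low correlations of deviations. The lowest was 0.0913 between vehicle groups, −0.0469 between LN332 groups and −0.0118 within MKα3− cells. There 7, 6 and 5 of 8 libraries correlated best with their own number. Between the MKα3+ groups the lowest was 0.202, and 7 of 8 correlated best with their own number, as many as between the vehicle groups. Apart from *Col17a1* in both media and *Dst* in LN332, the block changed no call of a member. Members called with LN332 stayed at 0 under all alternatives. With all the libraries compared kept, all genes called in MKα3+ cells ran from 3 (library size alone) and 4 (edgeR) to 454 (quality weights) and 516 (blocked MKα3+ fit), against 27, and in MKα3− cells from 1 (only the groups compared) to 259 (replicate block), against 44. Leaving out single libraries gave 0 to 47 in MKα3+ cells, with 0 for each of 4 libraries (vehicle replicates 2 and 4 and LN332 replicates 3 and 4), and 1 to 150 in MKα3− cells, with 1 without vehicle replicate 3 and 150 without LN332 replicate 1. The causes were not tested.

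Estimates near 0 changed sign. *Plec* in vehicle was 0.057 with quality weights. *Itgb4* in LN332 was 0.0059 with at least 10 counts in every library, 0.0053 with quality weights and 0.0003138 with the replicate block. With LN332 in MKα3+ cells *Itgb4* was −0.003078 by edgeR, −0.074 with library size alone and −0.048 with quality weights, *Dst* was −0.076 and −0.014 with the last 2, and *Lamb3* was −0.021 with library size alone. Leaving out single libraries gave −0.17 to 0.045 for *Itgb4* and −0.11 to 0.14 for *Plec* between the lines in vehicle, and −0.16 to 0.20 and −0.087 to 0.22 in LN332. With LN332 in MKα3+ cells the ranges were −0.018 to 0.15 for *Lamb3*, −0.24 to 0.065 for *Itga6*, −0.13 to 0.10 for *Itgb4*, −0.52 to 0.018 for *Col17a1* and −0.17 to 0.16 for *Dst*. In MKα3− cells they were −0.44 to 0.094 for *Itga6*, −0.30 to 0.064 for *Itgb4*, −0.55 to 0.0068 for *Col17a1* and −0.14 to 0.14 for the *Itga6* to *Itgb4* ratio. Averaged over the lines they were −0.15 to 0.033 for *Itgb4* and −0.14 to 0.021 for *Dst*. The lowest count of any member in a library was 2318, for *Itga6*.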
